A study of Mus musculus with 2 samples.

Results

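Fatty acids are burned in mitochondria and in peroxisomes, and the 58 genes described here encode enzymes of both routes and the proteins that build the peroxisome. They were chosen by symbol: names in Pex, Acox, Acot or Acsl followed by a number, names starting Acad or Hadh, and Cpt1a, Cpt1b, Cpt1c, Cpt2, Crat, Decr1 and Echs1. The array named 26891 genes by symbol, of which 16354 were measured on both arrays, and all 58 members were among these. A gene counted as measured where at least 1 of its probes was well above background on both arrays. The 58 members had 114 probes, of which 100 were well above background on both arrays, 1 on 1 array only and 13 on neither.

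Transcripts were measured in a mouse glioblastoma stem cell line, grown as neurospheres in serum-free medium with EGF and bFGF from brain tumors induced by SB transposition. The knockdown sample was this line stably transduced with a lentivirus expressing an shRNA against Stat5b. The control sample was the same line transduced with a non-target shRNA, so both carried a lentiviral vector. There was 1 single-colour array of each (2 arrays in all) and no replicate, both arrays lay on 1 slide, and 1 line and the absence of a second culture limit what the pair can stand for. The sequence of the hairpin is not given in the sources used here.

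A fatty acid is first activated to an acyl-CoA by the Acsl synthetases. Long chains then enter mitochondria as carnitine esters made by Cpt1 and turned back by Cpt2, and are shortened in a cycle that starts with the Acad dehydrogenases. Peroxisomes shorten very long and branched chains with the Acox oxidases, which make hydrogen peroxide, and import all their enzymes through the peroxins (Pex). Acot thioesterases reverse activation by cutting acyl-CoA back to fatty acid and coenzyme A. Stat5b, the factor lowered here, mediates growth hormone and cytokine signals, and astrocytic cells are known as the brain cells that oxidise most of the fatty acid used there.

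Stat5b was lower in the sample labelled as its knockdown. The processed signal (background-corrected brightness) of its brighter probe was 498 on the knockdown array and 1991 on the control array, or 24.98% of control. A dimmer probe had 7.49 on the knockdown array, where it was not well above background, and 14.7 on the control array. The stem cell markers Nes (15868 on the knockdown array and 18174 on the control array) and Vim (88538 and 96090) were bright, and the 7 measured stem cell markers ran from Nes at -0.20 to Sox9 at 0.40. Sox2 and Fabp7, which define many neural stem cells, were not well above background on either array, and Olig2 was so on the knockdown array only. Of 4 hepatocyte markers, for the tissue with the most peroxisomes, 0 were measured on both arrays. Markers of other cells were partly present: 3 of 6 for astrocytes, 5 of 5 for oligodendrocytes, 3 of 5 for neurons, 5 of 7 for microglia and macrophages, 2 of 4 for endothelium and 2 of 3 for adipocytes were measured on both arrays. Astrocyte markers ran from Aldh1l1 at -0.08 to Aqp4 at 0.94 (median log2 difference 0.04). Aqp4 was dim, with 63.1 on the knockdown array and 32.9 on the control array, and its 2 probes disagreed, at -0.02 and 1.90. Oligodendrocyte markers ran from Mog at -0.38 to Cnp at 0.46 (median -0.03) and neuron markers from Tubb3 at -0.08 to Map2 at 0.31 (median 0.17). Microglial markers ran from Cd68 at -0.48 to Tmem119 at 1.80 (median 0.22), and Tmem119, dim on both arrays, was at 0.85 with normexp background correction. Endothelial markers were Cdh5 at -0.75 and Pecam1 at 0.26, and adipocyte markers Plin1 at 0.48 and Fabp4 at 0.72. The part of such cells in the values below was not tested. In a bulk sample fewer cells of a type and less RNA per cell cannot be told apart.

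The probes behind the members with the largest differences are 60 bases long and are shown because each value below rests on 1 or 2 of them. Their sequences come from the authors' table and are written 5′ to 3′, in lower case throughout since no part of a probe is singled out.
Acot1: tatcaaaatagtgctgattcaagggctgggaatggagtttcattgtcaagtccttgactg
Acot11, first probe: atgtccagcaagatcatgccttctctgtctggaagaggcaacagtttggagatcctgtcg
Acot11, second probe: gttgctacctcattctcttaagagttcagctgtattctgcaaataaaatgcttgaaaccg
Cpt1c, first probe: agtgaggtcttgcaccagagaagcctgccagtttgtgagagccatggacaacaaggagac
Cpt1c, second probe: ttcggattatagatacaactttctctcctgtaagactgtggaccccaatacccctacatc
Acot5, first probe: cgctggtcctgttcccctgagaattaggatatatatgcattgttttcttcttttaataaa
Acot5, second probe: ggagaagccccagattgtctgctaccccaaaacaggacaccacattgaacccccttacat
Acad8: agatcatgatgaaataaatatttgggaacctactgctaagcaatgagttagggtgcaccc
Acot9, first probe: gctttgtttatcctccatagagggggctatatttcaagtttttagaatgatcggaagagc
Acot9, second probe: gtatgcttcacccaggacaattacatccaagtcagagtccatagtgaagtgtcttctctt
Acot10: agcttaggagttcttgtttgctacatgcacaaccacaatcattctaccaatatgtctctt
Acox2: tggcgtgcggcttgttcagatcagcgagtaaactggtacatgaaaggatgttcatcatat

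Large differences were few among the 58 genes. Differences are log2 of the knockdown value over the control value, and a gene is called higher or lower where it differed by 2-fold or more (log2 1). This is a rule of size and no test, since 1 array per group allows none. Acot1 and Acot11 were higher by this rule, 2 of 58 or 3.45%, against 3.66% of all measured genes. Acox2 and Acot10 were lower, also 2 of 58 or 3.45%, against 2.41% of all measured genes. Both shares lie near the share over all genes. At 1.5-fold, 6 members were higher and 6 lower, 10.3% each, against 11% and 8.44% of all measured genes.

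Small differences lay more often above 0 than below. Of the 58 members 41 were above 0, or 70.7%, against 51.1% of all measured genes. The median log2 difference was 0.16 over the members and 0.01 over all measured genes. The members' middle values ran from -0.08 to 0.31 (quartiles), against -0.24 to 0.28 for all measured genes, and 44 of the 58 lay within 0.5 of 0. Most single differences are of the size of the measuring error: the pooled SD of the log2 difference between different probes of 1 gene was 0.23 over the 31 members with several probes and 0.31 over all genes. Between repeated spots of the same probe the SD was 0.0558. For members with 1 probe the error reported by the scanner software came to 0.204 (median) on this scale, and none of these covers the spread between cultures. Members were also brighter than the average gene, with a median log2 level on the control array of 0.19 against -0.39 for all measured genes, and the part of signal level in the shift was not tested.

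**Figure D1:**
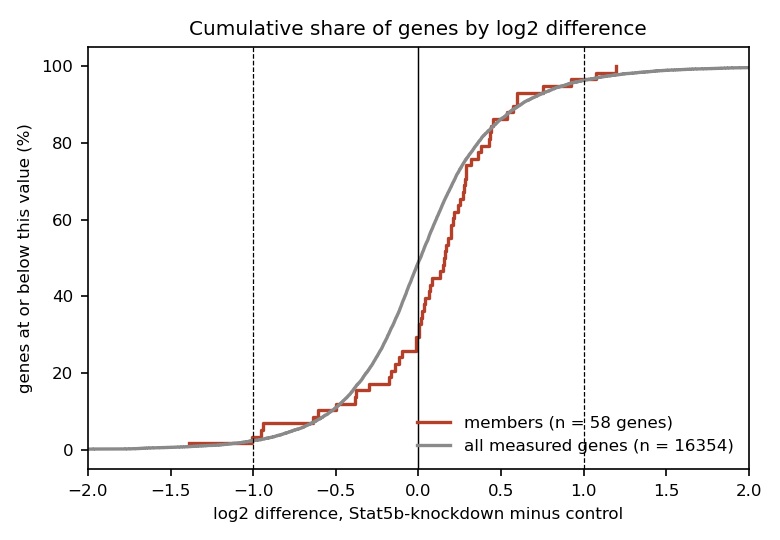
Cumulative share of genes (vertical axis, percent) at or below each log2 difference, Stat5b-knockdown minus control (horizontal axis), for the 58 members and for the 16354 measured genes; dashed lines mark 2-fold. The members' curve lies right of the curve of all genes around 0 (median 0.16 and 0.01) and the curves run together beyond 2-fold.

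Among the thioesterases, the family with the widest spread, 9 of 13 members lay above 0, against 51.1% of all measured genes, and 3 passed 2-fold, Acot1 and Acot11 higher and Acot10 lower, against 3.66% and 2.41% of all measured genes. Their median was 0.29, and 0.18 without the last 64 rows of the array. Acot1, the cytosolic enzyme that acts on long-chain acyl-CoA, had a signal of 9216 on the knockdown array and 4020 on the control array. This was 2.29-fold higher in the knockdown sample (log2 difference 1.20 ± 0.20, scanner error), place 372 from the top among 16354 genes. Acot11, a thioesterase with a lipid-binding START domain known from brown fat, had 1281 and 374 at its 2 probes on the knockdown array, against 610 and 177 on the control array. Its probes gave nearly the same difference, 1.07 and 1.08, or 2.10-fold higher in the knockdown sample.

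Acot10 and Acot9 went the other way. Acot10, which in the mouse is a close relative of the mitochondrial thioesterase Acot9, had 456 on the knockdown array and 916 on the control array, a log2 difference of -1.01 ± 0.20. Acot9 had 1989 and 1287 at its 2 probes on the knockdown array, against 3853 and 2436 on the control array. Its differences of -0.96 and -0.92 stopped just short of 2-fold. The Acot9 and Acot10 probes printed above share no run of more than 6 bases, but whether each transcript also binds the other gene's probe was not tested, and the single values of such close relatives are uncertain.

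Acot1 lies in a row of 6 related type I thioesterase genes, which by the gene table of assembly GRCm38.p6 follow each other without another protein-coding gene between them, in the order Acot2, Acot1, Acot4, Acot3, Acot5 and Acot6. All 6 lay above 0, and 5 of 6 with RefSeq mRNA probes alone, against 51.1% of all measured genes. Their median was 0.56, but the amounts were unequal. That median was 0.36 without the last 64 rows, 0.37 with normexp and 0.89 over the 4 genes with brighter probes. Acot2, the mitochondrial enzyme, had 399 on the knockdown array and 267 on the control array (0.58). Acot3, Acot4, Acot5 and Acot6, thioesterases of the peroxisome in the mouse, had values of 0.54, 0.03, 0.75 and 0.07.
The 2 probes of Acot5 disagreed: the second printed above had 277 on the knockdown array and 110 on the control array (1.33), and the first 35.7 and 31.5 (0.18). The second lies among the 64 rows at the end of the array, and without those rows Acot5 was at 0.18. In those rows 7.57% of all measured probes differed by at least 2-fold, against 5.43% in the other rows. The measured Acot6 probes were at -0.26 and 0.39, so the sign of that gene rests on the choice of probe: it was -0.26 with RefSeq mRNA probes alone. These genes are related, so signal may be shared between them, and their transcripts were not compared here. Over 201 pairs of thioesterase probes of different genes the longest shared run was 9 bases. This compares probes with probes, and whether a probe also binds the transcript of a related gene was not tested. The nearest measured genes on either side were at 0.43 (Riox1) and -0.77 (Dnal1).

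**Figure D2:**
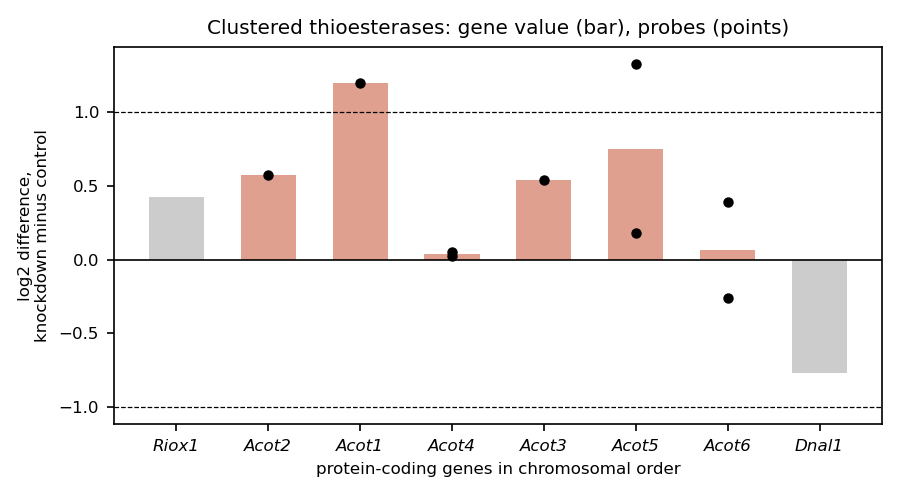
Log2 difference, knockdown minus control (vertical axis), of the 6 clustered thioesterase genes and of the nearest measured gene on each side, in chromosomal order (horizontal axis); bars are gene values, points the measured probes of the 6 thioesterases, grey bars the flanking genes, dashed lines 2-fold. Acot1 is the gene past 2-fold, and the probes of Acot5 (0.18 and 1.33) and Acot6 (-0.26 and 0.39) lie apart.

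The other thioesterases all lay within 0.5 of 0. Acot7, the cytosolic enzyme abundant in brain, had 10865 and 4046 at its 2 probes on the knockdown array, against 13816 and 5376 on the control array (-0.38). Acot8 of the peroxisome was at 0.32, Acot13, a mitochondria-associated enzyme, at 0.29 and Acot12, a cytosolic acetyl-CoA hydrolase, at -0.30.

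Among the peroxisomal oxidases Acox2 was lower and Acox3 lay near 0. Acox2 oxidises branched chains and the side chain of bile acid precursors. It had 126 on the knockdown array and 329 on the control array, 38.1% of control (-1.39 ± 0.21), place 140 from the bottom among 16354 genes. A second Acox2 probe had 4.77 on the knockdown array and 12.8 on the control array, was not well above background on either and was left out, with a difference of -1.42. Acox3, for branched chains, was at 0.16, with 4 probes from -0.04 to 0.59.

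**Figure D3:**
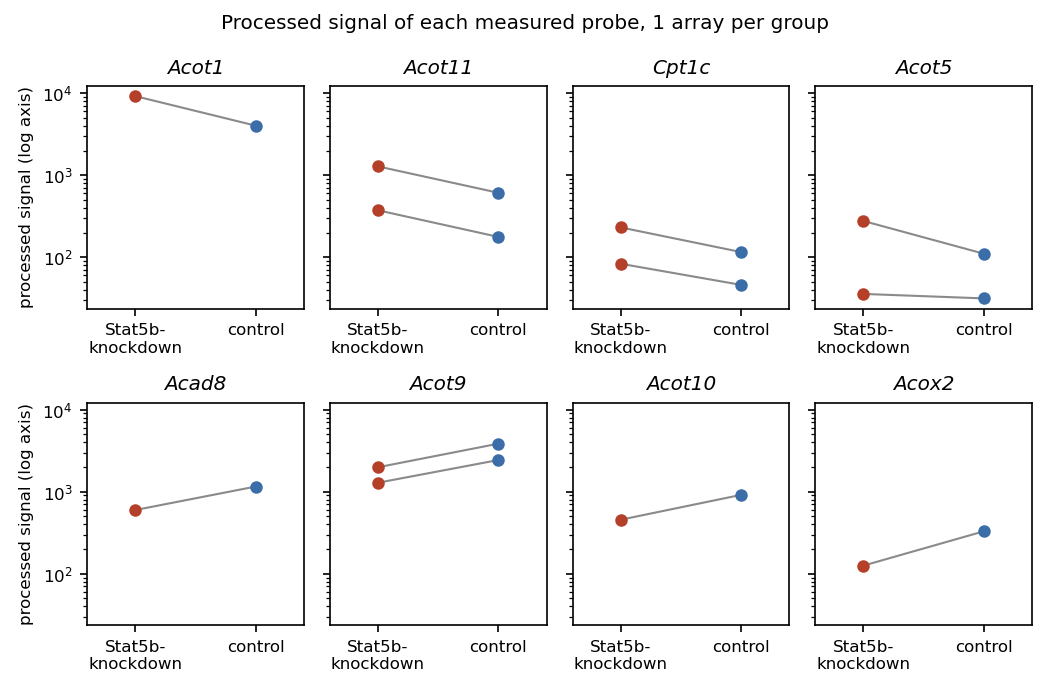
Processed signal (vertical log axis) of every measured probe of 8 members on the Stat5b-knockdown array (left) and the control array (right), 1 line per probe and 1 array per group, without error bars since there are no replicates. Lines of Acot1, Acot11, Cpt1c and Acot5 are higher on the knockdown array and those of Acad8, Acot9, Acot10 and Acox2 higher on the control array.

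At the entry to mitochondria the carnitine acyltransferases lay on both sides of 0 (3 above, 2 below, median 0.15), and none reached 2-fold. Cpt1c, the isoform of neurons, which sits in the endoplasmic reticulum and has little transferase activity, had 83.3 and 231 at its 2 probes on the knockdown array, against 46.0 and 116 on the control array. This was 1.90-fold higher in the knockdown sample (log2 0.93), short of 2-fold. Cpt1a, the widespread outer membrane enzyme that sets the pace of mitochondrial oxidation, had 2372 on the knockdown array and 2065 on the control array (0.20). Cpt1b, the muscle isoform, was dim, with 90.8 on the knockdown array and 128 on the control array (-0.50). Cpt2 of the inner membrane was at -0.16, and Crat, which handles short chains, at 0.15.

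The acyl-CoA synthetases were at most 1.34-fold apart, with 4 of 5 above 0, against 51.1% of all measured genes, and a median of 0.18. Without the filter on dim probes 3 of 5 were above 0 and the median was 0.05. Acsl3, the enzyme of lipid droplets, had 2709 and 423 at its 2 probes on the knockdown array, against 1980 and 319 on the control array (0.43). Acsl1 was at 0.21, Acsl4, which prefers arachidonic acid, at 0.18 and Acsl5 at 0.00. Acsl6, the brain enzyme for polyunsaturated chains, was at -0.38, with its 3 probes from -0.51 to -0.14.

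The acyl-CoA dehydrogenase family split evenly, 5 above 0 and 5 below (median 0.08). Among the enzymes of straight-chain oxidation, Acadm, for medium chains, had 7471 on the knockdown array and 5457 on the control array (0.45), and Acadvl, for very long chains, had 11111 and 8208 (0.44). Acads, for short chains, was at 0.24 and Acadl, for long chains, at -0.10. The largest difference was that of Acad8, the isobutyryl-CoA dehydrogenase of valine breakdown, with 598 on the knockdown array and 1157 on the control array (-0.95 ± 0.20). Acadsb, of isoleucine breakdown, was at 0.17. Acad10 had 288 on the knockdown array and 449 on the control array (-0.64), while Acad11 was at 0.28 and Acad12 at -0.01. Acad9, an assembly factor of respiratory complex I, was at -0.11.

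The later mitochondrial steps stayed near 0. Decr1, which clears double bonds of unsaturated chains, had 8698 on the knockdown array and 6767 on the control array (0.36). The 2 subunits of the trifunctional protein, Hadha and Hadhb, were at 0.04 and 0.16. The hydratase Echs1 was at 0.02, from probes at 0.15 and -0.12, and the dehydrogenase Hadh at -0.18. Both Echs1 probes, and the single probes of Pex11a and Pex14, lie in the last 64 rows, so these 3 members were measured there alone.

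**Figure D4:**
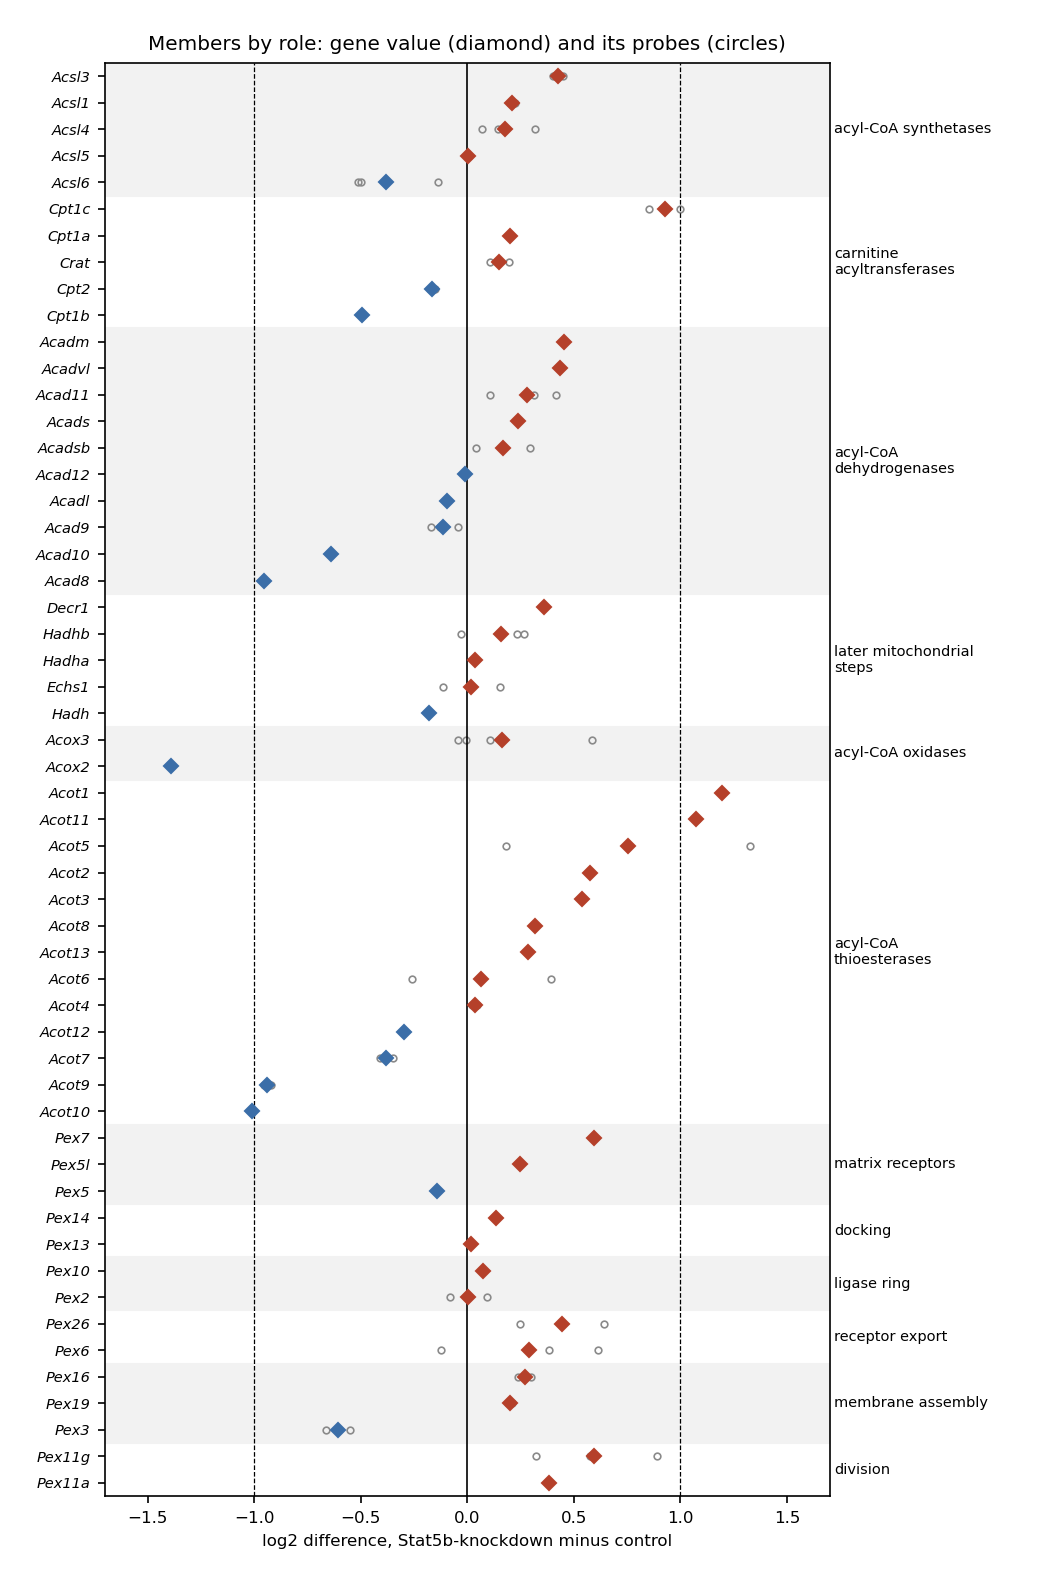
Log2 difference, Stat5b-knockdown minus control (horizontal axis), of 54 members grouped by role; diamonds are gene values (red above 0, blue below), circles the measured probes, dashed lines 2-fold. Of the 54 diamonds 38 lie above 0, 4 lie beyond 2-fold, and 12 of the 14 peroxins drawn lie above 0.

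The peroxins, which build the peroxisome, mostly lay slightly above 0. Of 17 measured genes named Pex, the Pex5 relative Pex5l among them, 14 lay above 0, against 51.1% of all measured genes. Their median was 0.21, and 0 reached 2-fold in either direction. With normexp 12 of 17 lay above 0. Over all settings the count ran from 12 to 14 and the median from 0.20 to 0.23. Pex7, the receptor for proteins with the second type of import signal, had 1072 on the knockdown array and 708 on the control array (0.60 ± 0.20). Pex5, the receptor for the more common signal, had 485 and 535 (-0.14), and its brain relative Pex5l, which is dim here, 0.25. The value of Pex5 lies within its scanner error of 0.20, and Pex5l was at 0.05 with normexp.

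Of the docking proteins, Pex13 was at 0.02 and Pex14 at 0.13. In the ubiquitin ligase ring that recycles Pex5, Pex2 was at 0.01 and Pex10 at 0.07. Pex2 changed sign in 5 of the 9 alternatives and Pex13 in 1, so their signs are not settled. In the machinery that exports receptors, the ATPase Pex6 was at 0.29 and its membrane anchor Pex26 at 0.44. The probes of Pex26 were at 0.25 and 0.64 and those of Pex6 ran from -0.12 to 0.61.

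The proteins that insert peroxisomal membrane proteins lay on both sides of 0. Pex3, the membrane receptor, had 862 and 57.3 at its 2 probes on the knockdown array, against 1262 and 90.6 on the control array, with differences of -0.55 and -0.66. Its partners Pex19, the chaperone, and Pex16 were at 0.20 and 0.27. Pex3 was thus the lowest of the 17 peroxins, at -0.61. A further probe of Pex3, not well above background on either array, brought the gene to -0.11 when it was included.

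Of the Pex11 proteins, which shape the membrane for division, Pex11g had 1238, 254 and 90.1 at its 3 measured probes on the knockdown array. On the control array the same probes had 668, 170 and 72.1. The differences were 0.89, 0.58 and 0.32, all above 0. A further Pex11g probe, the member probe well above background on 1 array only, had 12.3 on the knockdown array and 16.7 on the control array. Pex11a, the inducible form, had 4176 on the knockdown array and 3203 on the control array (0.38).

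Genes of the same pathways outside the members gave list medians from -0.15 to 0.30, without a test, against 0.16 for the members. For counts above 0 in these and the later lists, the share over all measured genes was 51.1%. Of 17 measured other enzymes and transporters of peroxisomal oxidation, 9 lay above 0 (median 0.30). That median is the value of Nudt12, dim at 26.4 on the knockdown array and 21.4 on the control array. The next lower value was that of Scp2 at -0.02. Phyh, which starts alpha-oxidation of phytanic acid, had a signal of 650 on the knockdown array and 336 on the control array (0.95), and Hacl1, its partner, was at 0.79. Ehhadh, the peroxisomal bifunctional enzyme, was at -0.99, but dim, with 18.9 on the knockdown array and 37.6 on the control array. Amacr, the racemase that prepares branched chains for peroxisomal oxidation, was at -0.74. Eci2 was at 1.18, but its 3 probes ran from -0.11 to 3.72, and it was at -0.11 under the alternative with the lowest value. Of 18 other mitochondrial enzymes 12 were above 0 (median 0.23), from Acat1 at -0.94, measured in the last 64 rows alone, to Mlycd, which removes the Cpt1 inhibitor malonyl-CoA, at 0.79. Carnitine and fatty acid entry had 10 of 17 above 0 (median 0.12), from Acss1 at -0.75 to Acss2 at 0.80, with the carnitine carrier Slc25a20 at 0.59.

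Of 20 measured other matrix and membrane genes of the peroxisome 13 lay above 0 (median 0.18). Gstk1, a peroxisomal and mitochondrial glutathione transferase, had 919 on the knockdown array and 404 on the control array (1.18), and Pipox, the pipecolate oxidase, had 121 and 40.2 (1.59, in the last 64 rows). Tysnd1, the protease that trims imported enzymes, was lowest at -0.49. Catalase (Cat), which removes the hydrogen peroxide of the oxidases, was at 0.17. In ether lipid synthesis 3 of 7 were above 0 (median -0.12), and Far1, which makes its fatty alcohols, had a mean signal of 121 on the knockdown array and 243 on the control array, just past 2-fold lower, from 5 probes between -1.40 and -0.61. Gnpat, which starts the pathway, was highest at 0.37. Of 5 measured factors of peroxisome division shared with mitochondria 2 were above 0 (median -0.15), from Dnm1l at -0.25 to Fis1 at 0.15.

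PPARα, PPARδ and PPARγ are the nuclear receptors that drive many of these genes. Ppara had 96.2 on the knockdown array and 41.1 on the control array (1.23, probes at 0.84 and 1.61), while Pparg was at 0.54 and Ppard at -0.04. Ppara was under 2-fold in 4 of 9 alternatives, with 0.53 as its lowest value. In the whole list of PPAR factors and coactivators 13 of 20 lay above 0 (median 0.25), with the deacetylase Sirt1 lowest at -0.90. Of 15 measured PPAR targets, 5 of them members, 11 were above 0 (median 0.27). They did not move as one: Acot1 (1.20) and Cidea (1.06) were at least 2-fold higher, while Ehhadh (-0.99), Fgf21 (-0.80), Plin2 (-0.50) and Pdk4 (-0.49) were below 0. Some of these values are weak: Cidea was at 0.32 with normexp, and Pdk4 was measured in the last 64 rows alone. Fgf21 was dim, with 44.8 on the knockdown array and 78.1 on the control array.

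Promoters were looked at for 2 motifs, in the 250 bases before each start in RefSeq's table of build GRCm38.p6, which held 45 of the 58 members with 55 starts. The first motif was TTCNNNGAA, the palindrome that STAT5 proteins bind, which reads the same on both strands. It was found for 4 of 45 members, 8.89%, against 8.13% of all 27025 genes in the table. The windows are shown because these are the members with that motif, which is in capitals, with at most 40 bases on each side, all read 5′ to 3′ on the gene's strand.
Pex16, chr2:92375138-92375226, plus strand: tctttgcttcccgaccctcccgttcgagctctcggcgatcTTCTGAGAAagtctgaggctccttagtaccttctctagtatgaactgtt
Cpt2, chr4:107923741-107923829, minus strand: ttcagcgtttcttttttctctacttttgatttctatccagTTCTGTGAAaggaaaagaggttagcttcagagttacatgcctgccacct
Hadha, chr5:30155088-30155176, minus strand: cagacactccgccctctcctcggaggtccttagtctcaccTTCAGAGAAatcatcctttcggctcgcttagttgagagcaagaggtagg
Hadhb, chr5:30155088-30155176, plus strand: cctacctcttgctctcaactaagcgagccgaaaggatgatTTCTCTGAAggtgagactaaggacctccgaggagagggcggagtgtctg
Hadha and Hadhb run away from each other from 1 shared promoter, so theirs is 1 site read on both strands. The differences of the 4 genes were 0.27, -0.16, 0.04 and 0.16, and 0 of them reached 2-fold. Their median was 0.10, against 0.17 for members without the motif. A match is a description of these letters and not a site shown to be bound.

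The second motif was AGGTCA on either strand, the hexamer of many nuclear receptors, PPARs among them. It was found for 10 of 45 members, 22.2%, against 15.8% of all genes, and their median difference was 0.32, against 0.16 for members without it. Without the last 64 rows of the array these medians were 0.20 over 9 members and 0.10 over 33. A pair of these hexamers in the same direction with 1 base between them, the spacing PPARs prefer, was found for 0 of 45 members and 0.0407% of all genes. The windows of all 10 are shown because these are the members with the hexamer, with the hexamer in capitals (as TGACCT where it lies on the other strand) and at most 20 bases on each side.
Acadm, chr3:153944867-153944893, minus strand: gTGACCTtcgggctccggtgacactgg
Acadvl, chr11:70015490-70015535, minus strand: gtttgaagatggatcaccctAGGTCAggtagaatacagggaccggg
Cpt1c, chr7:44974972-44975017, minus strand: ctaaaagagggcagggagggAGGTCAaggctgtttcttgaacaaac
Pex11g, chr8:3467796-3467841, minus strand: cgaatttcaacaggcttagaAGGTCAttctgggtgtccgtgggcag
Acsl6, first site, chr11:54303615-54303660, plus strand: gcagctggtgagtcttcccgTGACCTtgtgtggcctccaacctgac
Acsl6, second site, chr11:54303637-54303682, plus strand: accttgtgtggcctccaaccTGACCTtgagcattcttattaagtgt
Echs1, chr7:140116479-140116524, minus strand: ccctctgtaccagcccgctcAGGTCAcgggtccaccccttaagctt
Acot4, chr12:84038346-84038378, plus strand: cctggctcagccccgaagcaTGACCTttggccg
Acot5, chr12:84069080-84069125, plus strand: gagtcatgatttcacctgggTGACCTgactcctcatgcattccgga
Acot12, chr13:91741391-91741436, plus strand: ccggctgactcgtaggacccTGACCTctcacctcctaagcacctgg
Cpt1a, chr19:3323187-3323232, plus strand: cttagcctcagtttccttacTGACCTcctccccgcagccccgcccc
Their differences ran from -0.38 for Acsl6, with 2 such hexamers, and -0.30 for Acot12 to 0.93 for Cpt1c, with Echs1 at 0.02 and Acot4 at 0.03. Members' promoters also had more G and C than the average promoter, with a median of 58.4% against 52.4%, and the part of base composition in these shares was not tested.

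The members past 2-fold kept that call under most settings. Acot1 and Acox2 passed in each of the 9 alternatives tried, with ranges of 1.19 to 1.23 and -1.41 to -1.05. Each rests on 1 measured probe, so alternatives that choose among measured probes could not move it. The authors' table and median scaling shift all genes alike, so these passes say little about the 2 genes. Acot11 and Acot10 fell short of 2-fold under 1 of them, normexp background correction, with 0.87 and -0.92. Acot5 passed with brighter probes alone and with the brightest probe of each gene (1.33 in both), and Acot3 passed without the filter on dim probes (1.30).

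**Figure D5:**
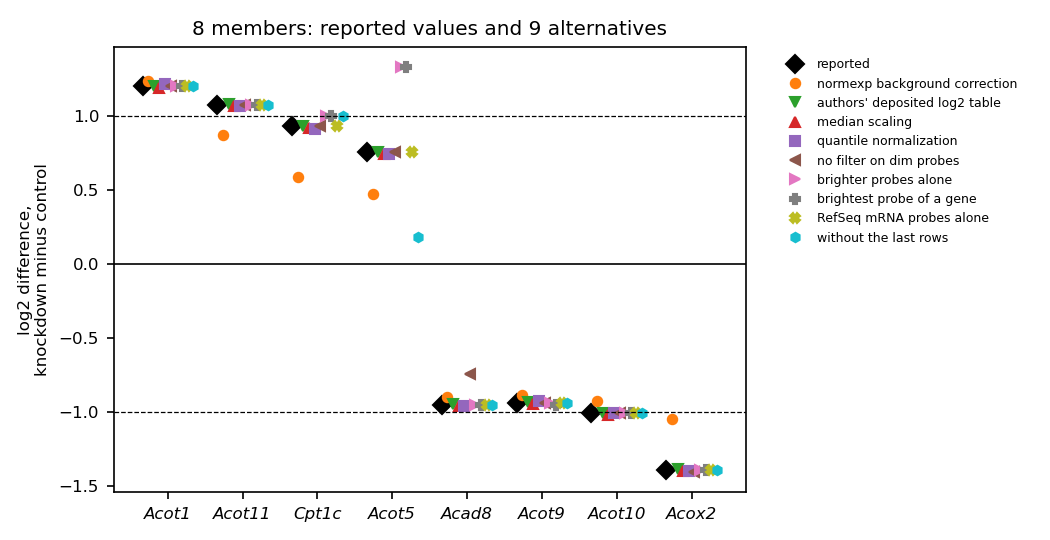
Log2 difference, Stat5b-knockdown minus control (vertical axis), of 8 members (horizontal axis) as reported and under 9 alternative settings, 1 symbol per setting; dashed lines mark 2-fold. The 8 genes keep their sign throughout, and Acot5 ranges most widely, from 0.18 to 1.33.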

How the data were processed

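Cy3-labelled RNA of 1 Stat5b-knockdown and 1 control sample was hybridised to 1 array each, grouped by the treatment label. The deposited scanner files give background-corrected intensity per spot, made with Agilent Feature Extraction 12.1.0.3 (protocol GE1_1200_Jun14, grid build mm9) and not scaled between arrays, per the file headers. The deposited files also hold flags of 0 or 1, used as other values, for spots well above background or of outlying pixels. The authors' table holds log2 values, which were log2 of that intensity minus a constant of 8.94 on each array for 100% of 56294 single-spot probes (within 0.001), so its scale, centring and direction were settled; its column medians were -3.83 in both.

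Control spots and flagged spots (94 on the knockdown array and 112 on the control array) were left out, and log2 intensity was scaled to each array's 75th percentile (signal 493.7 on the knockdown array and 493.3 on the control array). Well above background were 58.6% of 56594 probes on the knockdown array and 59.6% on the control array, and 0 spots were saturated. Probes well above background on both arrays were averaged per gene, by the file's symbol; 90 of 114 member probes had an accession in the gene table of GRCm38.p6, and 90 gave the same symbol. No test is possible with 1 array per group, so no p-value is given, and the number of arrays limits the precision. Members, role groups and lists were chosen with earlier results of these data known. Named were all members past 2-fold, the 14 highest and 14 lowest, and list genes past 2-fold or at either end; other members and genes were added for their roles after their values were seen. Alternatives were normexp correction (limma 3.58.1, offset 50, on raw median signals since no raw mean is given), the authors' table, median and quantile scaling, 2 other filters on dim probes (none, or a signal of at least 100), the brightest probe, RefSeq mRNA probes and leaving out the last 64 rows. Counts and medians cover all members, of which 4 are not reported by name here. The calculation was tested on simulated data. Work was done in Python 3.11.15 and R 4.3.3.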

Additional observations from a re-analysis of the deposited data

How the results depend on the processing

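With normexp correction of the background 1 member was at least 2-fold higher (Acot1) and 1 at least 2-fold lower (Acox2), against 2 and 2 as reported; over all genes the shares were 1.17% and 1.03% there, against 3.66% and 2.41%. Over the other 8 alternatives 2 or 3 members were higher and 2 lower. The share above 0 ranged from 66.7% (38 of 57, RefSeq mRNA probes) to 70.7% (41 of 58), and the members' median from 0.12 to 0.20. Without the filter on dim probes 59.7% of all genes were above 0 and their median was itself 0.10, against 0.12 for the members. Of 511 member values under the 9 alternatives, 11 moved by more than the SD between probes of 1 gene (0.31) and 0 called values changed sign. Of the 58 members 51 had no such move. For the 27 members with 1 measured probe, alternatives that choose among measured probes could not move the value. Pex3 was at -0.11 without the filter on dim probes, Pex6 at 0.61 with its brightest probe and Cpt1c at 0.59 with normexp. Among genes outside the members, Gstk1 and Lipa passed 2-fold in all 9 alternatives; Pipox, Cidea, Mgll, Pnpla3 and Tmem119 fell short with normexp, Far1 in 3 and Eci2 in 5. No paired analysis was possible because each group has 1 array. Dim members such as Acot3 (42.1 on the knockdown array and 29.0 on the control array) have little signal over background.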

Other observations

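Genes that release or store fatty acids were also measured. Of 16 measured genes of lipolysis and lipid droplets 10 lay above 0, with a median of 0.22, and 4 passed 2-fold, all of them higher in the knockdown sample, against 3.66% of all measured genes. With normexp background correction 3 of the 4 fell short, Mgll at 0.89, Cidea at 0.32 and Pnpla3 at 0.34. Mgll, the monoglyceride lipase, had 636 on the knockdown array and 301 on the control array (1.08, probes at 1.02 and 1.13). Lipa, the lysosomal acid lipase, had 1596 on the knockdown array and 790 on the control array (1.01). Cidea, a lipid droplet protein of brown fat, was at 1.06 and Pnpla3 at 1.37, both dim, the last from the last 64 rows. Dgat2, which makes triglyceride, was lowest at -0.62, also measured in the last 64 rows alone. Pnpla2, the enzyme that starts lipolysis, was at -0.05. These values do not form 1 direction: storage and release genes stood on both sides of 0.

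Among genes of ketone bodies 5 of 8 measured were above 0 (median 0.04), from Acat1 at -0.94 to Bdh2 at 0.86. The malonyl-CoA and AMPK list, whose genes make or remove the Cpt1 inhibitor or control its synthesis, had 9 of 12 above 0 (median 0.11), from Prkaa1 at -0.19 to Mlycd at 0.79, and 0 reached 2-fold.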
